A study of Mus musculus with 12 samples.

Results

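The TNF superfamily of ligands and receptors was followed in primary mouse skin fibroblasts with and without TGF-β2. Members were all genes of the count table whose GENCODE symbol began with Tnfsf or Tnfrsf and a digit, together with Tnf, Lta, Ltb, Ltbr, Cd40, Cd40lg, Fas, Fasl, Cd27, Cd70, Ngfr, Eda, Edar and Eda2r. This gave 45 of the 21556 genes counted, with 18 ligands, 7 receptors with a death domain, 4 decoy receptors and 16 receptors that bind TRAF adapters. The cells were grown from abdominal skin of WT mice (C57BL/6) and of Nox4 KO mice (B6.129-Nox4tm1Kkr/J), expanded, frozen and thawed before use. Each genotype was sequenced unstimulated (control) and after 24 h with TGF-β2 at 10 ng/ml, in 3 libraries per group and 12 in all, and every culture had first been starved for 24 h. The study's methods state that both lines descend from littermates of a heterozygous cross and were then kept as separate WT and Nox4 KO litters. The effects of the deletion, of litter and of donor-strain DNA linked to the Nox4 allele cannot be told apart here. The design text calls the replicates biological, but it does not say whether each came from its own mouse, and p-values then measure the spread between these samples.

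TNF superfamily ligands are mostly trimeric proteins of the cell surface that can be shed, and each binds 1 or a few receptors of the matching family. Several receptors with a death domain recruit FADD or TRADD and can start apoptosis through caspase-8. TRAF-binding receptors lead mainly to NF-κB and MAP kinase signalling. Decoy receptors bind ligand without passing on such a signal. In skin, fibroblasts are known chiefly as cells that receive these signals from keratinocytes and immune cells.

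The family was represented in these fibroblasts mainly by its receptors. Of the 45 members, 20 had a mean of at least 1 RPKM (reads per kilobase of exon, scaled to the library total) in some group, and 16 of these were receptors. Tnfrsf12a, the receptor of TWEAK also called Fn14, had the highest level, with a mean of 341 RPKM over the 12 libraries and rank 96 among all genes. It was followed by Tnfrsf1a, the main TNF receptor (88.9 RPKM), Ltbr, the lymphotoxin β receptor (64.9 RPKM), Tnfrsf23, a decoy receptor for TRAIL (54.6 RPKM), and Tnfrsf11b, which encodes osteoprotegerin, the decoy receptor of RANKL (45.1 RPKM). Summed over all members, receptors reached 549.7 to 993 RPKM per library and ligands 11.7 to 21.6 RPKM. The share of the receptor sum that came from Tnfrsf12a lay between 33.3% and 46.3% in the control libraries and between 49.9% and 62.7% in the stimulated ones.

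Only 4 ligands reached 1 RPKM in any group, namely Tnfsf12 (TWEAK), Tnfsf9 (4-1BB ligand), Tnfsf15 (TL1A) and Tnfsf18 (GITR ligand). Tnf itself was counted 0 to 13 times per library and Lta 2 to 7 times. Cd40lg, Cd70 and Tnfsf14 had 0 counts in all libraries, which allows up to 3 counts in each. Fasl, Ltb and Tnfsf10 (TRAIL) and the receptors Edar, Tnfrsf13c and Tnfrsf17 had at most 3 counts in any library and were treated as not detected. The other members below 1 RPKM in every group had more than 3 counts somewhere. They were the ligands Eda, Lta, Tnf, Tnfsf4, Tnfsf8, Tnfsf11, Tnfsf13 and Tnfsf13b and the receptors Cd27, Ngfr, Tnfrsf8, Tnfrsf9, Tnfrsf11a, Tnfrsf13b, Tnfrsf19 and Tnfrsf25. For a gene of 2 kb, 3 counts correspond to 0.0342 to 0.0427 RPKM, so lower levels were not detectable at this depth, and such limits cover counting error only.

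**Figure D1:**
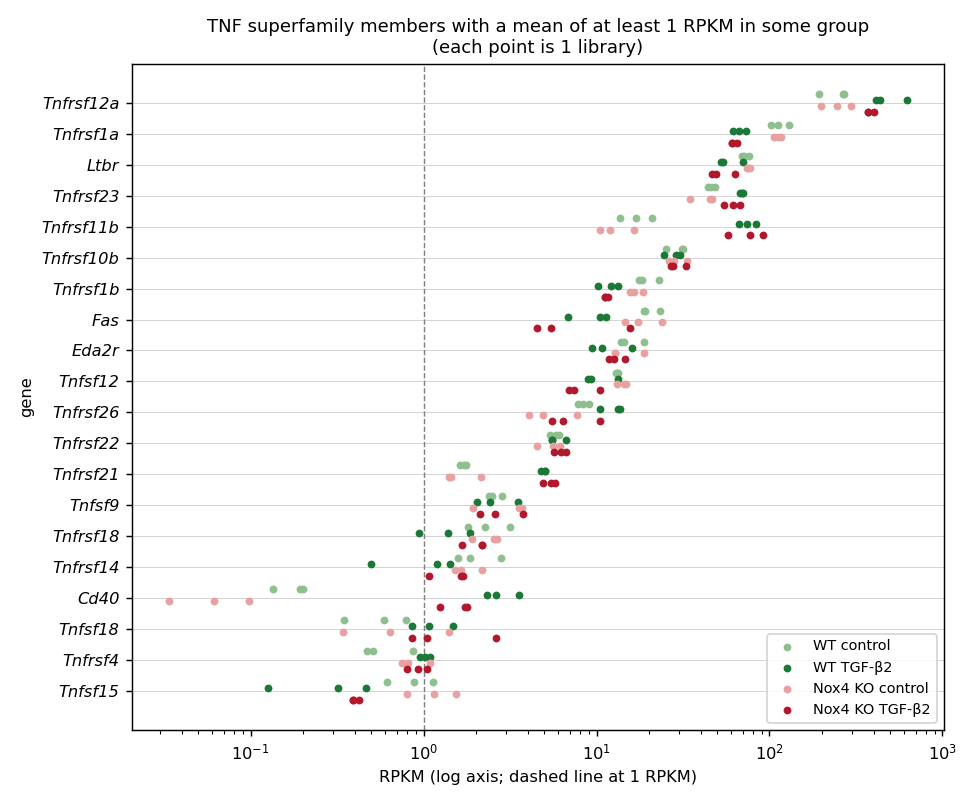
RPKM on a log axis for the 20 members with a mean of at least 1 RPKM in some group, 1 point for each of the 12 libraries, coloured by group and ordered by the mean over all libraries. Tnfrsf12a lies highest in every group, and Cd40 shows the widest gap between control and stimulated libraries.

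Total counts lay between 35118344 and 43796260 per library. The 8 fibroblast markers summed to between 4092 and 6956 RPKM. In WT their sums were 5466 to 6186 RPKM in control and 4092 to 5159 RPKM with TGF-β2. In Nox4 KO they were 5075 to 6956 RPKM in control and 4312 to 5492 RPKM with TGF-β2. The 9 markers of macrophages and monocytes were all detected and summed to 14.0 to 121 RPKM, highest in replicate 3 of both WT groups and in replicate 1 of both Nox4 KO groups, with Lyz2 the main contributor (up to 90.8 RPKM). Markers of T, B and NK cells reached 0.867 RPKM in sum at most, with Cd3g, Ms4a1 and Ncr1 at 0, those of keratinocytes 0.930 RPKM, those of adipocytes 0.282 RPKM, those of Schwann cells and melanocytes 1.29 RPKM and those of endothelial cells 5.38 RPKM. Nox4 was counted 211, 203 and 398 times in WT control, 1809, 1314 and 2471 times in WT with TGF-β2, 102, 108 and 207 times in Nox4 KO control and 793, 782 and 1175 times in Nox4 KO with TGF-β2. The Nox4 KO libraries therefore still held Nox4 reads, with a log2 difference from WT of −0.99 (SE 0.37) in control and −1.17 (SE 0.29) after TGF-β2, neither of which passed edgeR's quasi-likelihood test (adjusted p = 0.828 and 0.838). A count over the whole gene does not show whether the deleted part was transcribed.

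To show the sequences from which members with a called response are transcribed, the 250 bases before the start site are given for 3 receptors that were higher and 2 that were lower after TGF-β2. They come from the RefSeq annotation of GRCm38.p6, 5′ to 3′ on the strand of the gene, in lower case with any match to the searched motifs in capitals.
Tnfrsf12a, chr17:23677450-23677699, minus strand: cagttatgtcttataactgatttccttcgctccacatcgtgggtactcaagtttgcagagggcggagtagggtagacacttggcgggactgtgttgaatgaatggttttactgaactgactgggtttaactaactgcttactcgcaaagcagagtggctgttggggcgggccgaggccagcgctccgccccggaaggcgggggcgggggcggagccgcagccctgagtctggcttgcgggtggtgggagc
Tnfrsf21, chr17:43016305-43016554, plus strand: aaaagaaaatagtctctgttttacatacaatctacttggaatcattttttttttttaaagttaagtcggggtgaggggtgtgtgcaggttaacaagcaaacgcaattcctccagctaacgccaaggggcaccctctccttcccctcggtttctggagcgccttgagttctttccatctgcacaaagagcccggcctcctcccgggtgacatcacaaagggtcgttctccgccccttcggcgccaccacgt
Tnfrsf23, chr7:143685876-143686125, minus strand: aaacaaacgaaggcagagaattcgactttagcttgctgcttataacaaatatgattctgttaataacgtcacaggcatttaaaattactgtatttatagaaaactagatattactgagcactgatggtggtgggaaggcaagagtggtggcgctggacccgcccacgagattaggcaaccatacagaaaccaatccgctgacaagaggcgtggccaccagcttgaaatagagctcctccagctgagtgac
Fas, chr19:34290409-34290658, plus strand: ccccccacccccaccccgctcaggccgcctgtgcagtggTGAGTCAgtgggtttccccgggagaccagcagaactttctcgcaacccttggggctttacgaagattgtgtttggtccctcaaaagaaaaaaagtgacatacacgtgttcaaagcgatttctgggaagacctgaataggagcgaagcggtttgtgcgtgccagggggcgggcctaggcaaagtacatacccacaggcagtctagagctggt
Tnfrsf1b, chr4:145246871-145247120, minus strand: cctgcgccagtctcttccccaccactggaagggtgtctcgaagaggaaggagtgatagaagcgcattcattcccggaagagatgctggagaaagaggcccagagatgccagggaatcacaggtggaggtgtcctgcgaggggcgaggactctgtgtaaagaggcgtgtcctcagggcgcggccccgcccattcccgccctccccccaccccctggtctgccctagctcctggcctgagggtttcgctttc
The last 19 bases of the Tnfrsf12a stretch lie inside the gene as GENCODE annotates it, and the others lie outside their genes. GC content was 58.8% for Tnfrsf12a, 50.4% for Tnfrsf21, 44.8% for Tnfrsf23, 56.4% for Fas and 62.8% for Tnfrsf1b, against a median of 52.4% over 32851 promoters of the table. These 5 stretches held 15, 12, 8, 11 and 12 CpG dinucleotides in the same order, against a median of 6.

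The stretches were searched on both strands for the SMAD box CAGACA, the AP-1 site TGANTCA and the NF-κB consensus. The one match was an AP-1 site in Fas that begins at position −211. Among the 39 promoters that the table holds for 35 of the 45 members, 15.4% had the SMAD box (17.1% of all promoters), 15.4% the AP-1 site (6.75% of all promoters) and 7.69% the NF-κB consensus (3.90% of all promoters). A match is a description of letters and not a binding site. Cd40, Cd40lg, Cd70, Tnfrsf10b, Tnfrsf11b, Tnfrsf22, Tnfrsf26, Tnfsf12, Tnfsf4 and Tnfsf9 had no entry in the table.

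The response of WT fibroblasts to TGF-β2 was examined first. Receptors moved in both directions. The decoy receptor Tnfrsf11b, the TRAF-binding receptors Cd40 and Tnfrsf12a and the death domain receptor Tnfrsf21 were at least 2-fold higher after TGF-β2, and the decoys Tnfrsf23 and Tnfrsf26 were higher by a smaller factor. Fas and both TNF receptors were lower. In total, 6 of the 19 members tested rose (10.4% of the 10743 genes tested rose) and 3 fell (12.2% of all genes), by edgeR's quasi-likelihood test with an adjusted p under 0.05. With a fold change of at least 2 as well, 4 rose and 1 fell, against 2.62% and 5.09% of all genes. The median log2 fold change of the 19 members was 0.08 and that of all genes was −0.00. Only genes with a mean of at least 1 RPKM in 1 of the compared groups were tested, and Cd40, Tnfsf18 and Tnfrsf4 entered only through the stimulated group.

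Cd40 (chr2:165055627-165072948), the receptor for CD40 ligand, is best known from B cells and antigen-presenting cells. In WT it was counted 21, 16 and 25 times in control, or 0.193, 0.135 and 0.200 RPKM. With TGF-β2 it was counted 449, 306 and 268 times, or 3.55, 2.62 and 2.32 RPKM. The groups lay far apart, with a log2 fold change of 4.04 (SE 0.27, adjusted p = 0.000459), 16.5-fold higher. Its ligand Cd40lg was not detected. The macrophage markers summed to 46.1, 26.3 and 121 RPKM in the 3 control libraries and to 35.0, 21.9 and 83.8 RPKM in the stimulated ones. Among control libraries the highest Cd40 level fell in the library with the highest sum, and among stimulated libraries in another one. In bulk RNA, a change in the number of cells of a type cannot be told apart from a change in RNA per cell.

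Tnfrsf11b (chr15:54250619-54278484) rose from 20.9, 17.0 and 13.6 RPKM to 74.5, 66.8 and 83.8 RPKM. Every stimulated WT library was above every control library, and the log2 fold change was 2.17 (SE 0.19, adjusted p = 0.00106), 4.49-fold higher. Tnfrsf21 (chr17:43016555-43089189), known as death receptor 6, was tight within groups. Its levels were 1.62, 1.76 and 1.70 RPKM in control and 5.04, 5.04 and 4.78 RPKM with TGF-β2, a log2 fold change of 1.59 (SE 0.11, adjusted p = 0.000478). Tnfrsf12a (chr17:23675445-23677468) stood at 269.8, 266 and 194 RPKM in control and at 438, 623 and 412 RPKM with TGF-β2. Its groups did not overlap, and the log2 fold change of 1.05 (SE 0.21, adjusted p = 0.0140) acted on the member with the highest level. Its ligand Tnfsf12 had 13.2, 13.0 and 13.3 RPKM in control and 9.26, 13.4 and 8.88 RPKM with TGF-β2, and did not pass the test (log2 fold change −0.29, SE 0.16, adjusted p = 0.234).

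The genes for the TRAIL decoys Tnfrsf22 and Tnfrsf23 and for their relative Tnfrsf26 lie next to each other on the minus strand of chromosome 7, with gaps of 6.08 kb between Tnfrsf26 and Tnfrsf22 and 16.1 kb between Tnfrsf22 and Tnfrsf23, and they did not have the same result. Tnfrsf23 (chr7:143665809-143685872) rose from 46.1, 43.8 and 48.2 RPKM to 70.1, 69.1 and 67.7 RPKM (log2 fold change 0.62, SE 0.08, adjusted p = 0.00317). Tnfrsf26 (chr7:143607659-143628722) rose from 9.06, 8.34 and 7.78 RPKM to 13.3, 13.6 and 10.4 RPKM (log2 fold change 0.61, SE 0.14, adjusted p = 0.0216). The Tnfrsf26 call was lost with all 12 libraries in the fit (adjusted p = 0.106) and without WT control replicate 2, WT control replicate 3 or WT TGF-β2 replicate 1. Tnfrsf22 overlapped between groups at 5.41, 6.06 and 5.85 RPKM and 5.54, 6.67 and 5.56 RPKM (log2 fold change 0.08, SE 0.10, adjusted p = 0.621). Of the 50-base stretches in its exons, 27.4% also occur in exons of another gene and 17.3% in Tnfrsf23, whereas 28.9% of those of Tnfrsf23 occur in Tnfrsf22. Since reads with several locations were discarded, the levels of this pair are understated.

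Fas (chr19:34290666-34327772), the death receptor for Fas ligand, fell from 18.8, 19.1 and 23.3 RPKM to 6.87, 11.3 and 10.5 RPKM. The groups did not overlap, with a log2 fold change of −1.05 (SE 0.18, adjusted p = 0.00921). With all 12 libraries in 1 fit the call was lost (adjusted p = 0.0668). Tnfrsf1a (chr6:125349362-125362484) fell from 112, 102 and 129.6 RPKM to 61.7, 73.2 and 66.6 RPKM, a log2 fold change of −0.73 (SE 0.11, adjusted p = 0.00506). Tnfrsf1b (chr4:145213463-145246870), the second TNF receptor, which has no death domain, fell from 18.4, 17.7 and 22.9 RPKM to 12.2, 10.2 and 13.3 RPKM (log2 fold change −0.68, SE 0.14, adjusted p = 0.0163). Without WT control replicate 1, WT control replicate 3 or WT TGF-β2 replicate 1, the Tnfrsf1b call was lost (adjusted p up to 0.0714). The control library with the highest Tnfrsf1b level was also the one with the highest sum of macrophage markers, whose part in the result was not tested. The ratio of Tnfrsf1a to Tnfrsf1b had medians of 5.79 in control and 5.07 with TGF-β2. That of Tnfrsf12a to Tnfrsf1a had medians of 2.41 and 7.10, with all stimulated libraries above all control libraries.

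The other 10 tested members did not pass the test in WT. The death domain receptor Tnfrsf10b, the TRAIL receptor of the mouse, had means of 29.4 RPKM in control and 27.9 RPKM with TGF-β2 (log2 fold change −0.04, SE 0.12). Ltbr had 72.3 and 58.9 RPKM, Eda2r, a receptor of ectodysplasin, 15.7 and 12.1 RPKM, Tnfsf9 2.57 and 2.67 RPKM and Tnfrsf18 (GITR) 2.41 and 1.39 RPKM. Tnfrsf14 (HVEM) had 2.09 and 1.04 RPKM, with all stimulated libraries below all control libraries, which held for 24.9% of all genes tested. The libraries of Tnfsf18, with 0.576 and 1.14 RPKM, and of Tnfrsf4 (OX40), with 0.615 and 1.02 RPKM, did not overlap between groups either. Their stimulated libraries were all above the control libraries, which held for 20.3% of all genes tested. By role, 3 of 4 decoy receptors tested rose and none fell, 1 of 4 death domain receptors rose and 2 fell, 2 of 8 TRAF-binding receptors rose and 1 fell, and none of 3 ligands passed. Of all genes tested in WT, 10.4% rose and 12.2% fell. With 3 to 8 genes per role, the counts are too few to set against these shares. They include Cd40, which passed the filter through the stimulated group alone, and leave out Tnfsf15, which was under it. Without WT TGF-β2 replicate 2, 5 members in place of 3 were lower, and the share of all genes lower in that run is not given.

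**Figure D2:**
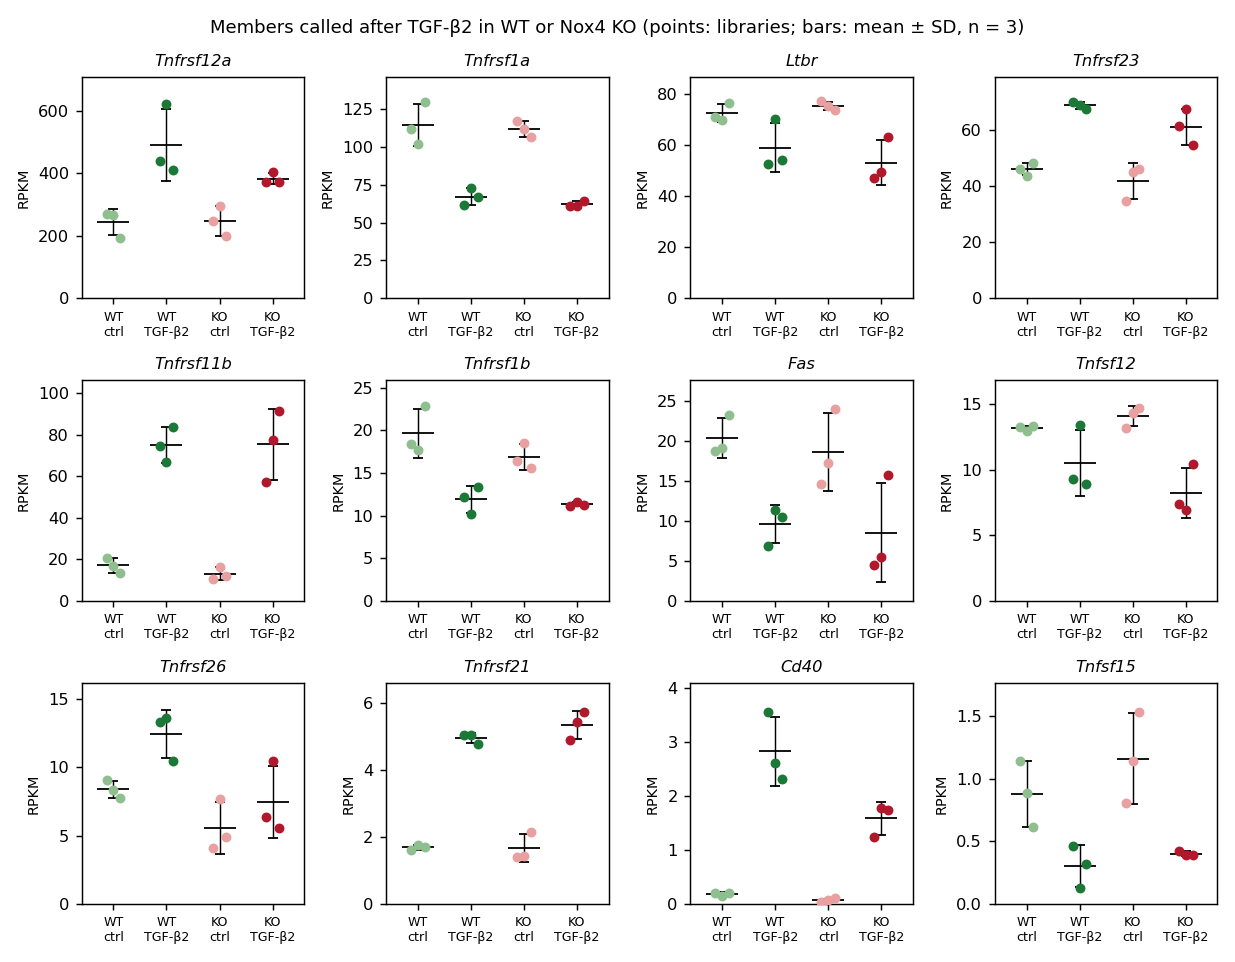
RPKM in each library (points) with the mean ± SD of 3 libraries (bars) for the 12 members called after TGF-β2 in WT or in Nox4 KO fibroblasts, on linear axes that start at 0. Cd40, Tnfrsf11b, Tnfrsf21, Tnfrsf12a, Tnfrsf23, Tnfrsf1a, Tnfrsf1b and Tnfsf15 show no overlap between control and stimulated libraries in either genotype. Fas has 1 stimulated Nox4 KO library at 15.7 RPKM, far above the others of its group.

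The same stimulation was then examined in Nox4 KO fibroblasts, which shared no library with WT. Cd40, Tnfrsf11b, Tnfrsf21, Tnfrsf12a and Tnfrsf23 rose here too, and both TNF receptors fell again. The members Ltbr, Tnfsf12 and Tnfsf15 fell in addition. Of the 19 members tested, 5 rose (15.1% of the 10809 genes tested rose) and 5 fell (14.9% of all genes). With a fold change of at least 2 as well, 3 rose and 1 fell, against 2.22% and 4.58% of all genes. The median log2 fold change of the members was −0.04 and that of all genes −0.01. Control and stimulated Nox4 KO libraries with the same number departed from their group means together, and with the replicate number as a block 8 members rose and 6 fell, against 25.2% and 28.8% of all genes. Of the calls, 5 of the 6 rises in WT (83.3%) and 5 of the 5 rises in Nox4 KO were shared, against 72.6% and 49.5% for all genes. Of the falls, 2 were shared, which was 66.7% of those in WT and 40.0% of those in Nox4 KO, against 69.8% and 56.8% for all genes.

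Cd40 was counted 4, 8 and 11 times in Nox4 KO control (0.0337, 0.0618 and 0.0976 RPKM) and 165, 242 and 227 times with TGF-β2 (1.24, 1.78 and 1.74 RPKM). The log2 fold change was 4.70 (SE 0.36, adjusted p = 0.00178), 25.9-fold higher, from a control level set by few reads. As in WT, Cd40 passed the filter through the stimulated group alone. The macrophage markers summed to 94.0, 33.9 and 21.2 RPKM in control and to 67.8, 24.6 and 14.0 RPKM with TGF-β2, and in each group the library with the highest sum had the lowest Cd40 level. Tnfrsf11b rose from 10.5, 16.4 and 12.0 RPKM to 57.3, 77.4 and 91.5 RPKM (log2 fold change 2.62, SE 0.24, adjusted p = 0.00260). Tnfrsf21 rose from 1.40, 1.43 and 2.14 RPKM to 4.90, 5.45 and 5.73 RPKM (log2 fold change 1.78, SE 0.18, adjusted p = 0.00312). None of these 3 genes overlapped between groups, and the share of all genes that rose without overlap in Nox4 KO is not given.

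The rises of Tnfrsf12a and Tnfrsf23 were less than 2-fold. Tnfrsf12a stood at 245, 296 and 198 RPKM in control and at 372, 403 and 372 RPKM with TGF-β2 (log2 fold change 0.71, SE 0.16, adjusted p = 0.0214). The call was lost without Nox4 KO control replicate 1 or Nox4 KO TGF-β2 replicate 1 or 2. Tnfrsf23 rose from 34.6, 45.1 and 46.3 RPKM to 61.6, 67.5 and 54.8 RPKM (log2 fold change 0.63, SE 0.13, adjusted p = 0.0186), a call lost without Nox4 KO TGF-β2 replicate 1 or 2. Without either of these 2 libraries, 3 members in place of 5 were higher. Tnfrsf26 had 4.08, 7.68 and 4.88 RPKM in control and 6.36, 10.4 and 5.55 RPKM with TGF-β2. Its groups overlapped, while each stimulated library was above the control library of its own number, and the adjusted p was 0.280 without the block and 0.00785 with it. The block likewise added Tnfrsf22 (log2 fold change 0.28, SE 0.06, adjusted p = 0.0153) and Tnfsf18 (log2 fold change 1.03, SE 0.23, adjusted p = 0.0145). Tnfsf18 passed the filter through the stimulated group alone, with means of 0.797 RPKM in control and 1.52 RPKM with TGF-β2, and its groups overlapped.

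Among the members that fell, Tnfrsf1a had the smallest standard error. It went from 117, 112 and 107 RPKM to 60.7, 60.7 and 64.5 RPKM (log2 fold change −0.77, SE 0.07, adjusted p = 0.00241). Tnfrsf1b went from 16.4, 18.5 and 15.6 RPKM to 11.1, 11.6 and 11.2 RPKM (log2 fold change −0.49, SE 0.09, adjusted p = 0.0114). Both receptors of TNF were therefore lower in every stimulated library of either genotype than in any control library of that genotype. Tnfsf15, the ligand of Tnfrsf25, fell from 103, 160 and 187 counts to 61, 57 and 55 counts, or from 0.804, 1.15 and 1.54 RPKM to 0.425, 0.389 and 0.390 RPKM. Its log2 fold change was −1.44 (SE 0.26, adjusted p = 0.0114), it passed the filter through the control group alone, and the call was lost without Nox4 KO TGF-β2 replicate 2. Without Nox4 KO control replicate 3 the gene was under the filter and was not tested, so the call was lost there too. In WT, Tnfsf15 was under the filter with 134, 113 and 83 counts in control and 63, 16 and 40 counts with TGF-β2, and these did not overlap.

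Tnfsf12, the ligand of Tnfrsf12a, fell from 13.2, 14.3 and 14.7 RPKM to 7.38, 6.93 and 10.4 RPKM (log2 fold change −0.69, SE 0.16, adjusted p = 0.0251). Of its exon bases, 48.3% belong also to the readthrough gene Tnfsfm13 on the same strand, so its count is uncertain. Ltbr fell from 77.0, 75.2 and 73.8 RPKM to 46.8, 49.4 and 62.9 RPKM (log2 fold change −0.42, SE 0.12, adjusted p = 0.0384). The Tnfsf12 and Ltbr calls were each lost on leaving out any one library other than Nox4 KO TGF-β2 replicate 3. The Ltbr call was also lost with no filter on low counts (adjusted p = 0.0504). The count of 5 members lower became 3 without Nox4 KO control replicate 1, Nox4 KO control replicate 2 or Nox4 KO TGF-β2 replicate 1, and 2 without Nox4 KO control replicate 3 or Nox4 KO TGF-β2 replicate 2. Fas had 14.6, 17.3 and 24.0 RPKM in control and 4.50, 5.43 and 15.7 RPKM with TGF-β2. Replicate 3 with TGF-β2 was above the lowest control library, and Fas did not pass without the block (log2 fold change −1.04, SE 0.49, adjusted p = 0.158) but passed with it (log2 fold change −1.21, SE 0.24, adjusted p = 0.00952).

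By role, 2 of 4 decoy receptors rose in Nox4 KO, 1 of 4 death domain receptors rose and 1 fell, 2 of 7 TRAF-binding receptors rose and 2 fell, and 2 of 4 ligands fell. Among these calls, Cd40 passed the filter through the stimulated group alone and Tnfsf15 through the control group alone. Tnfsf15 was not tested in WT, so the counts of ligands do not compare the genotypes. Of all genes tested in Nox4 KO, 15.1% rose and 14.9% fell. With 4 to 7 genes per role, the counts are too few to set against these shares. Tnfrsf10b (29.2 RPKM in control and 29.1 RPKM with TGF-β2), Eda2r (14.8 and 13.0 RPKM), Tnfsf9 (3.06 and 2.82 RPKM), Tnfrsf18 (2.37 and 2.00 RPKM) and Tnfrsf14 (1.78 and 1.47 RPKM) did not pass the test. Tnfrsf4 was under 1 RPKM in both Nox4 KO groups.

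**Figure D3:**
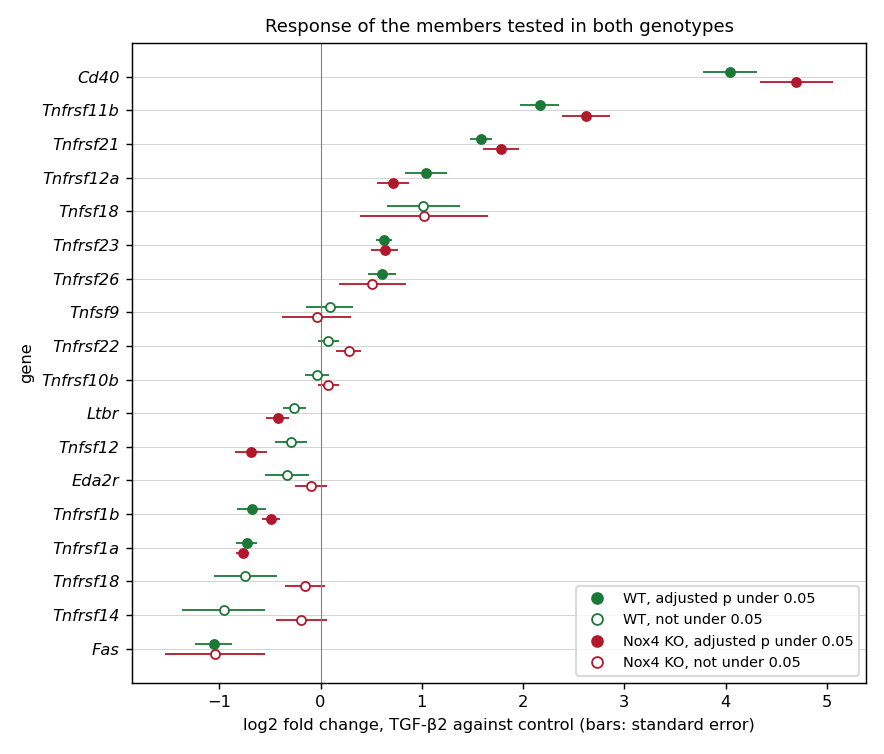
Log2 fold change after TGF-β2 with its standard error for the 18 members tested in both genotypes, in WT (green) and in Nox4 KO (red), with filled points for an adjusted p under 0.05. Cd40 has the largest value in both genotypes, at 4.04 in WT and 4.70 in Nox4 KO, and the bars of most members overlap between genotypes.

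The filter of 1 RPKM left out members with few reads, several of which were lower after TGF-β2. Among the 17 members that had more than 3 counts in some library but were under the filter in WT, stimulated libraries were all below control libraries for 9 and all above for none. In Nox4 KO this held for 8 of 17 and again none were above. The 8 were Eda, Tnfrsf11a, Tnfrsf19, Tnfrsf25, Tnfsf8, Tnfsf11, Tnfsf13 and Tnfsf13b, and in WT Tnfsf15 came in addition. Among the genes tested, 24.9% in WT and 31.5% in Nox4 KO had all stimulated libraries below all control libraries. In WT, 20.3% of them had all stimulated libraries above, and for Nox4 KO that share is not given. These shares cover genes that passed the filter. No share is given for genes under it, so the counts of 9 and 8 of 17 have no like background. Tnfrsf19 (at most 10 counts) and Tnfsf8 (at most 6 counts) had too few reads for a test.

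With a filter on a mean count of at least 10, blind to the groups, 27 members were tested. In WT 6 rose and 6 fell, against 10.4% and 12.3% of all genes tested that way, and in Nox4 KO 5 rose and 11 fell, against 14.2% and 13.6%. Eda, the ligand of Edar and Eda2r, which is known for the development of hair and teeth, had means of 0.852 and 0.533 RPKM in WT (log2 fold change −0.61, SE 0.17, adjusted p = 0.0465). In Nox4 KO it had 0.963 and 0.561 RPKM (log2 fold change −0.67, SE 0.19, adjusted p = 0.0435). Tnfrsf25 (log2 fold change −1.01, adjusted p = 0.0214), Tnfsf13 (APRIL, −1.51, adjusted p = 0.0284) and Tnfsf13b (BAFF, −1.44, adjusted p = 0.0342) passed in Nox4 KO. In WT their log2 fold changes were −0.94, −1.42 and −1.19, with adjusted p-values of 0.0540, 0.0641 and 0.0600. Of the exon bases of Tnfsf13, 60.0% belong also to Tnfsfm13. Tnfrsf13b and Tnfrsf17, which bind BAFF and APRIL, were at or under 6 counts, as was Tnfrsf13c, which binds BAFF. Ngfr, the low-affinity neurotrophin receptor, had 42 to 163 counts and did not pass in either genotype. Cd27, Tnfrsf8, Tnfrsf9 and Tnfsf4 had at most 9 counts in any library.

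RANKL, RANK and osteoprotegerin form an axis best known from bone, in which osteoprotegerin captures RANKL before it meets RANK. All 3 genes were called under this wider filter in both genotypes, the ligand and receptor lower and the decoy higher. Tnfsf11, the gene of RANKL, was counted 18, 36 and 53 times in WT control and 8, 11 and 7 times with TGF-β2 (log2 fold change −1.95, SE 0.42, adjusted p = 0.0187). In Nox4 KO it was counted 55, 39 and 31 times and then 18, 11 and 12 times (log2 fold change −1.64, SE 0.35, adjusted p = 0.0194). Tnfrsf11a, the gene of RANK, was counted 62, 84 and 57 times in WT control and 28, 32 and 23 times with TGF-β2 (log2 fold change −1.25, SE 0.28, adjusted p = 0.0205). In Nox4 KO it was counted 74, 83 and 77 times and then 28, 22 and 52 times (log2 fold change −1.23, SE 0.34, adjusted p = 0.0423). Tnfsf11 and Tnfrsf11a stayed under 1 RPKM in every library. The ratio of Tnfrsf11b to Tnfsf11 RPKM was 91.0, 40.2 and 23.2 in WT control and 848, 513 and 997 with TGF-β2, and 16.3, 39.3 and 31.6 in Nox4 KO control and 305, 689 and 719 with TGF-β2. Stimulated libraries were above control libraries in both genotypes, and with 7 to 55 Tnfsf11 counts behind each ratio the exact size is loosely set.

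**Figure D4:**
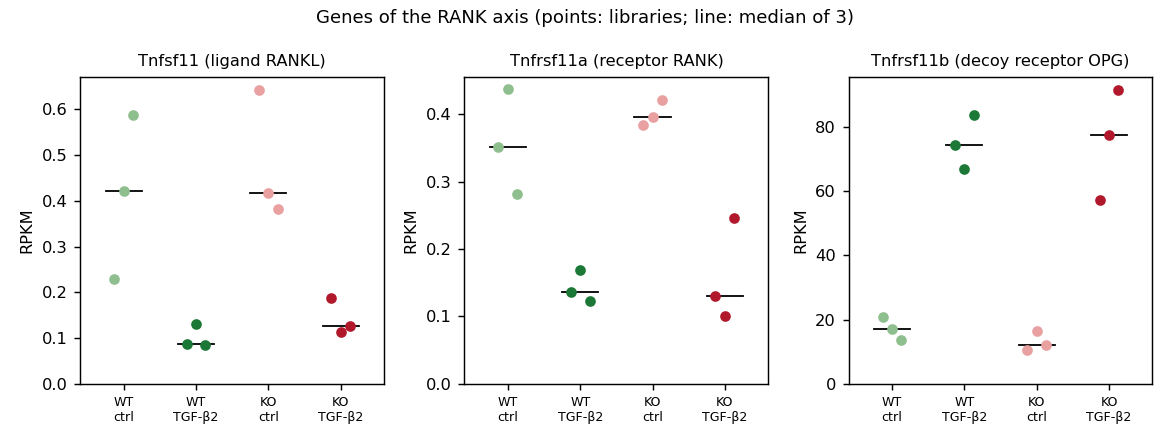
RPKM of Tnfsf11 (RANKL), Tnfrsf11a (RANK) and Tnfrsf11b (osteoprotegerin) in each library (points) with the median of 3 (line), on linear axes that start at 0 and differ between panels. In both genotypes all stimulated libraries lie below the control libraries for Tnfsf11 and Tnfrsf11a and above them for Tnfrsf11b.

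The pathway below the receptors was described by 47 adapters, kinases, proteases and NF-κB subunits and by 32 genes known as NF-κB targets, lists that share 7 genes (14.9% and 21.9% of each). Of 45 adapter and pathway genes tested, 5 rose and 2 fell in WT, with a median log2 fold change of 0.01, and 7 rose and 3 fell in Nox4 KO, with a median of 0.03. These counts stood against 10.4% and 12.2% of all genes in WT and 15.1% and 14.9% in Nox4 KO. The largest rises in WT were Traf5, a receptor adapter (0.72, SE 0.11, adjusted p = 0.00697), Nfkbib, an inhibitor of NF-κB (0.69, SE 0.13, adjusted p = 0.0113), and Relb, an NF-κB subunit (0.63, SE 0.12, adjusted p = 0.0110). The falls were Cyld, a deubiquitinase that restrains the pathway (−0.71, SE 0.11, adjusted p = 0.00579), and Ikbkg, the NEMO subunit of the IκB kinase (−0.47, SE 0.09, adjusted p = 0.0135). In Nox4 KO, Casp8, the initiator caspase of death receptors (0.62, SE 0.08), Cflar, its inhibitor (0.58, SE 0.14), and Traf3 (0.51, SE 0.11) led the rises, and Cyld (−0.62, SE 0.17), Ikbke (−0.52, SE 0.10) and Fadd (−0.42, SE 0.11) were the falls. Casp8 and Traf5 rose and Cyld fell in both genotypes.

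Of 22 NF-κB target genes tested, 4 rose and 6 fell in WT, with a median log2 fold change of −0.15, and 2 rose and 5 fell in Nox4 KO, with a median of −0.13. Of all genes tested, 10.4% rose and 12.2% fell in WT, with a median of −0.00, and 15.1% rose and 14.9% fell in Nox4 KO, with a median of −0.01. Mmp9, a gelatinase, rose by 3.57 (SE 0.16, adjusted p = 0.000236) in WT and 3.82 (SE 0.48, adjusted p = 0.00506) in Nox4 KO on the log2 scale. Ptgs2, the inducible cyclooxygenase, rose by 1.96 (SE 0.31, adjusted p = 0.00656) and 1.93 (SE 0.19, adjusted p = 0.00293). The neutrophil chemokine Cxcl5 had log2 fold changes of −5.32 (SE 0.32, adjusted p = 0.000383) and −4.99 (SE 0.24, adjusted p = 0.000857), and Cxcl1, another, of −3.14 (SE 0.45, adjusted p = 0.00462) and −3.56 (SE 0.54, adjusted p = 0.00751). The adhesion molecule Vcam1 fell in WT (−1.97, SE 0.22, adjusted p = 0.00221) and Nox4 KO (−1.66, SE 0.26, adjusted p = 0.00874), and the NF-κB cofactor Bcl3 fell in Nox4 KO (−1.80, SE 0.31, adjusted p = 0.0110) and WT (−1.20, SE 0.21, adjusted p = 0.00868). The target list thus held genes that moved in opposite directions.

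Whether the loss of Nox4 altered the family was then examined. No member passed the test between genotypes, either in control (17 tested) or after TGF-β2 (19 tested), and edgeR called 0% of all genes in both comparisons. DESeq2 called 0 members as well, and of all genes it called 0.0836% higher and 0.176% lower in control and 0.0766% in each direction after TGF-β2. At an unadjusted p under 0.05 there was 1 member in control, Tnfrsf26 (5.54% of all genes), and there were 2 after TGF-β2, Cd40 and Tnfrsf26 (3.23% of all genes). The median log2 difference of the members was −0.07 in control and −0.06 after TGF-β2, and 0.00 for all genes in both. Both pathway lists had 0 genes called in either comparison.

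Tnfrsf26 had the lowest unadjusted p in control. It was lower in every Nox4 KO control library (4.08, 7.68 and 4.88 RPKM) than in any WT control library (9.06, 8.34 and 7.78 RPKM), which held for 2.74% of all genes. The log2 difference was −0.63 (SE 0.24, unadjusted p = 0.0371, adjusted p = 0.828). After TGF-β2 it was −0.72 (SE 0.25, unadjusted p = 0.0245, adjusted p = 0.838), with Nox4 KO at 6.36, 10.4 and 5.55 RPKM and WT at 13.3, 13.6 and 10.4 RPKM. Tnfrsf26 lies 56.2 Mb from Nox4 on the same chromosome, and its neighbours Tnfrsf22 (−0.13, SE 0.12) and Tnfrsf23 (−0.17, SE 0.11) differed less between genotypes in control. Cd40 after TGF-β2 had a log2 difference of −0.82 (SE 0.24, unadjusted p = 0.0111, adjusted p = 0.838), with every Nox4 KO library below every WT library, and its control counts did not overlap either. After TGF-β2, libraries of Tnfrsf12a (−0.33, SE 0.15) and Tnfrsf23 (−0.15, SE 0.11) were also all lower in Nox4 KO, as were 5.92% of all genes.

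The difference between the responses of both genotypes was tested over all 12 libraries with an interaction term. Of 20 members tested, 0 passed with edgeR and 0 with DESeq2, and 0 had an unadjusted p under 0.05 (2.68% of all genes), where edgeR called 0% of all genes and DESeq2 0% higher and 0.0551% lower. For Cd40 the response in Nox4 KO was larger by 0.67 on the log2 scale (SE 0.45, adjusted p = 0.854), and for Tnfrsf11b by 0.47 (SE 0.32). For Tnfrsf12a the interaction was −0.31 (SE 0.27), for Tnfsf12 −0.38 (SE 0.23) and for Fas 0.03 (SE 0.56). The values of all 20 members lay between −0.61 for Tnfrsf4 (SE 0.37) and 0.78 for Tnfrsf14 (SE 0.52). Calls made in 1 genotype alone, such as Tnfsf12, Ltbr and Tnfrsf26, were therefore not shown to differ between genotypes, and the standard errors leave room for differences of this size.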

How the data were processed

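Single-end RNA sequencing of cultured mouse skin fibroblasts gave 12 libraries, 3 per group, whose group and replicate number stand in the sample titles. Per the labels, base calling used CASAVA 1.8.2, mapping STAR 2.4 and counting featureCounts 1.4.6 on GRCm38. The authors discarded reads with more than 1 location and deposited raw read counts per gene over the merged exons of protein-coding isoforms. Use of the strand in counting is not given in the sources used here.

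All 21556 genes were matched by identifier to GENCODE annotation of GRCm38. RPKM was computed from the count, the merged exon length and the library total. Each pair of groups was fitted on its own 6 libraries with edgeR 4.0.16 in R 4.3.3 (TMM, quasi-likelihood test, Benjamini-Hochberg adjustment over all genes tested), after keeping genes with a mean of at least 1 RPKM in 1 group. The interaction used all 12 libraries. Standard errors were derived from the F statistic. DESeq2 1.42.0, other normalizations and filters, a replicate block and leaving out each library were alternatives. The procedure was tested on simulated counts. Promoters were read from a RefSeq table.

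Every called member, its ligand or receptor, the 5 highest members and members whose groups did not overlap in both genotypes are named, and 3 rises and falls per pathway list. Members and lists were chosen with earlier results of these data known. In Nox4 KO, control and stimulated libraries of the same number departed from their group means together (correlations 0.775, 0.683 and 0.748). Neither the labels nor the study's methods state a pairing, and what these libraries share was not tested. The main Nox4 KO fit did not use the replicate numbers, and only the replicate block did.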

Additional observations from a re-analysis of the deposited data

How the results depend on the processing

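For the 12 members called after TGF-β2, 284 single values were recomputed under the alternatives, of which 249 kept their direction and side of the threshold, 35 kept the direction but not the call, and 0 reversed. Tnfsf15 had no value without Nox4 KO control replicate 3, where it fell under the filter. Of 160 recomputed counts of members called, 144 held within 1.5 times, among them all those that stayed at 0 in comparisons between genotypes and the interaction. The 16 that moved were all counts of responses to TGF-β2. In WT, the 3 members lower became 1 with a fold change of at least 2, 5 with no filter on low counts, 6 with a mean count of at least 10, and 2 to 5 on leaving out 1 library. In Nox4 KO, the 5 members higher became 3 with the fold limit, 8 with the replicate block and 3 to 5 on leaving out 1 library. The 5 lower became 1 with the fold limit, 10 with no filter, 11 with a mean count of at least 10 and 2 to 6 on leaving out 1 library. The wider filters add genes tested. The share of all genes called is not given for the runs with no filter or with 1 library left out. Comparisons between genotypes and the interaction kept 0 members called under every alternative run. Single libraries were not left out under the wider filters. In WT, same-numbered libraries did not meet the limit for pairing (lowest correlation 0.0751), and the replicate block gave 6 higher (12.3% of all genes) and 4 lower (16.4%). Between genotypes correlations lay between −0.175 and 0.285, and the block changed no call. Of all calls in Nox4 KO, 50.5% were rises, against 38.2% with upper-quartile normalization and 32.7% with library size alone, where the median log2 fold change of all genes was −0.10, and the same numbers of members were called with both. With 3 libraries per group, members with few counts could not be tested firmly.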
